A study of Homo sapiens with 15 samples.

Results

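Collagens and the enzymes and chaperone that process them were followed in WI-38 cells. These are fibroblasts from human fetal lung that stop dividing after a finite number of passages. The genes were chosen by symbol. They are the collagen chain genes (COL, a number, A and a number), every symbol that starts with P4HA, P3H, PLOD or LOX, and SERPINH1 and BMP1. By that rule 32 of the 4872 genes in the 4 deposited tables were members, of which 22 encode collagen chains, 9 encode enzymes or the chaperone and 1 is an antisense RNA. The libraries form 5 groups of 3, and all groups were treated with lipo3000, a lipofection reagent. PD30 cells (30 generations, read as population doublings) carry the label DMSO. GW8510 cells are PD45 cells (45 generations) given the kinase inhibitor GW8510 and the negative control NC, with no DMSO label. The siSRC2 and siSRC4 groups are PD45 cells with DMSO and an siRNA against SRC, a tyrosine kinase gene, and the PD45 control has DMSO and NC. Each table sets one of the first 4 groups against the PD45 control. Passage cannot be told apart from NC in the PD30 comparison, nor the compound from the missing DMSO label in the GW8510 comparison. All cells are of 1 line, the labels name no separate cultures, and p-values therefore measure the spread between libraries, which may be technical.

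Collagens are secreted proteins of 3 chains wound into a helix. Prolyl hydroxylases and lysyl hydroxylases modify the chains in the endoplasmic reticulum, SERPINH1 (HSP47) binds the folded helix, and lysyl oxidases cross-link the collagen outside the cell. Fibrillar collagens (types III, V, XI and XXIV here) form the fibrils of connective tissue, whereas type IV collagen forms the network of basement membranes, in which types XV and XVIII are also found. Fibroblasts are the main source of fibrillar collagen in the lung.

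Values are the deposited normalized expression signal, and levels of different genes are not compared because the headers do not say whether it is scaled by transcript length. Read depth is unknown. Each table holds only genes that the authors called at an adjusted p under 0.05 and a fold of at least 1.5, and absence from a table does not show that a gene stayed the same. Of 62 annotated protein-coding genes that match the rule, 31 were in no table, among them COL1A1, COL1A2, COL6A1, COL6A2, COL12A1, LOX, LOXL1, PLOD3 and BMP1. The knockdown target SRC stood at 11.6, 10.6 and 11.6 with siSRC2, at 9.51, 11.1 and 11.8 with siSRC4 and at 18.9, 20.5 and 19.9 in the PD45 control. Of 10 fibroblast markers, COL3A1 (itself a member), VIM and PDGFRA were listed as higher and S100A4 as lower at PD30. Of 6 epithelial markers, KRT19, KRT8 and KRT18 were lower at PD30, and KRT19 was 235 with GW8510, 73.6 with siSRC2 and 135 in the PD45 control. ACTA2 and CNN1, of 5 smooth muscle markers, were lower at PD30, SOX9 (of 4 chondrocyte markers) was lower with GW8510, and no endothelial or blood marker was listed. The part of these markers in the results below was not tested.

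For PD30 there were 21 members, 11 higher and 10 lower, where the authors listed 15.3% of the genes they tested (8.24% higher and 7.07% lower). For GW8510 there were 11, of which 3 were higher and 8 lower, where 11.8% of tested genes were listed (4.59% higher and 7.26% lower). With siSRC2 8 members were listed, all higher, at a background of 2.64% (1.38% higher and 1.26% lower). With siSRC4 9 were listed, 7 higher and 2 lower, at a background of 8.77% (3.91% higher and 4.86% lower). Among annotated protein-coding genes, the share of rule-matching genes in the table was 32.3% for PD30 (12.1% over all such genes), 17.7% for GW8510 (8.01%), 12.9% for siSRC2 (1.53%) and 14.5% for siSRC4 (5.83%). The authors tested 12549 to 18575 genes per comparison, against 20056 annotated ones. Genes that were not tested count in both shares and expression was not matched, so the excess is not read as enrichment. The direction of members is read against that of all listed genes. Members were higher in 52.4% for PD30 (53.8% of all listed genes), 27.3% for GW8510 (38.8%), 100% for siSRC2 (52.3%) and 77.8% for siSRC4 (44.6%). By the authors' deposited table, the median log2 fold change of members was 0.65 for PD30 (0.64 over all listed genes), -0.87 for GW8510 (-0.65), 0.82 for siSRC2 (0.59) and 0.73 for siSRC4 (-0.61). Of the 32 members 19 were in 1 table, 10 in 2, COL3A1 and COL4A1 in 3, and P4HA3 in all 4.

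**Figure D1:**
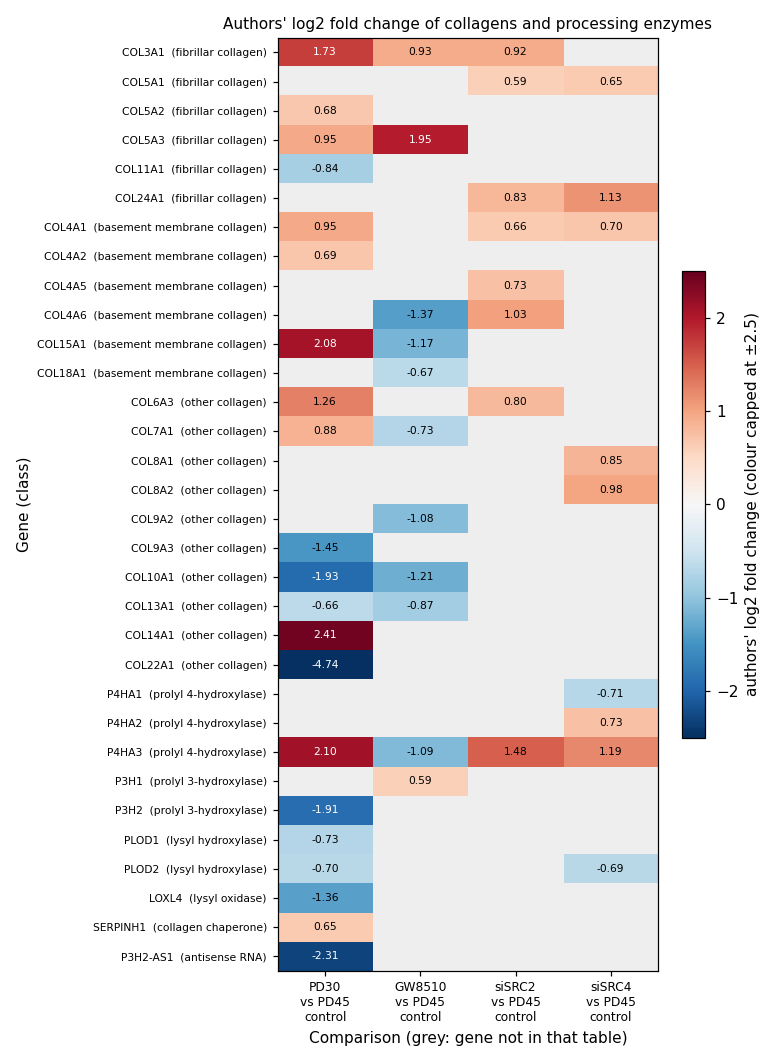
Log2 fold change against the PD45 control from the authors' deposited table for each of the 32 members (rows, by class) in the 4 comparisons (columns). Red is higher and blue lower than in the PD45 control, grey means that the gene is not in that table, and the siSRC2 column holds no blue cell.

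At PD30, 3 of the 4 listed fibrillar collagens and all 3 listed basement membrane collagens were higher, and of the listed modifying and cross-linking enzymes 4 were lower and 1 was higher. COL3A1, COL5A2, COL5A3, COL4A1, COL4A2, COL15A1, COL6A3, COL7A1, SERPINH1 and P4HA3 were higher, and P3H2, LOXL4, PLOD1 and PLOD2 were lower. In a re-test of the listed genes with limma, 17 of the 21 members entered at a mean signal of at least 1 and all 17 passed (10 higher, 7 lower), where 97.3% of all listed genes that entered did. No overlap between libraries of the 2 groups was seen in any of the 21, nor in 93.6% of all listed genes. Since the authors chose the listed genes by this same contrast, the re-test shows how far the deposited signals carry the calls and is no independent evidence. In bulk RNA, fewer cells expressing a gene and less RNA per cell cannot be told apart.

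Among fibrillar collagens, COL3A1, the chain of type III collagen, had signals of 397, 372 and 361 at PD30, against 108, 114 and 122 in the PD45 control. Every PD30 library stood far above every control library, and the ratio of means was 3.28. In limma the difference in log2(signal + 1) was 1.71 ± 0.08 (SE), adjusted p = 1.51e-07. COL5A2, a chain of type V collagen, which sets fibril diameter, was 182, 169 and 177 at PD30, against 126, 109 and 112 in the PD45 control. The groups were well apart here too, with a smaller ratio of 1.52. COL5A3, another type V chain, averaged 3.60 ± 0.42 at PD30 and 1.89 ± 0.19 in the PD45 control (SD, n = 3 each). COL11A1, a type XI chain best known from cartilage, was the listed fibrillar collagen that was lower, at 3.69 ± 0.51 at PD30 and 6.67 ± 1.49 in the PD45 control, 1.81-fold lower.

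COL4A1 and COL4A2, whose chains together form the common type IV network, were both higher at PD30. COL4A1 had 238, 204 and 239.6 at PD30, against 135, 113 and 96.4 in the PD45 control. The lowest PD30 library lay well above the highest control library, and the ratio was 1.98. COL4A2 had 369, 314 and 379.6 at PD30, against 250.1, 216 and 180.3 in the PD45 control. The ratio was 1.64, and in both genes control library 1 was the highest of its group and library 3 the lowest. The 2 limma differences were 0.99 ± 0.12 for COL4A1 and 0.72 ± 0.12 for COL4A2 (SE, adjusted p = 4.70e-05 and 0.000353). COL15A1, which encodes the basement membrane zone collagen XV, averaged 4.33 ± 0.37 at PD30 and 1.02 ± 0.21 in the PD45 control, a ratio of 4.24.

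COL4A1 and COL4A2 lie head to head on chromosome 13, and the 300-base windows around their starts (250 bases before and 50 after, RefSeq, GRCh38.p14) overlap by 226 bases, with the starts 127 bases apart. COL4A5 and COL4A6 are arranged likewise on chromosome X, where the COL4A5 window and 1 of the 2 COL4A6 windows share 121 bases and their starts are 380 bases apart. The windows of COL4A2 and COL4A5 are shown because each includes part of its partner's window. Partners were listed together in 2 cases, COL4A1 and COL4A2 at PD30 and COL4A5 and COL4A6 with siSRC2, and apart in 3, COL4A1 alone of its pair with siSRC2 and with siSRC4 and COL4A6 alone with GW8510. Capitals mark a CCAAT box (CCAAT) or a GC box (GGGCGG) on either strand; in these 2 windows the marked motifs do not overlap each other.
COL4A2, chr13:110307034-110307333, plus strand: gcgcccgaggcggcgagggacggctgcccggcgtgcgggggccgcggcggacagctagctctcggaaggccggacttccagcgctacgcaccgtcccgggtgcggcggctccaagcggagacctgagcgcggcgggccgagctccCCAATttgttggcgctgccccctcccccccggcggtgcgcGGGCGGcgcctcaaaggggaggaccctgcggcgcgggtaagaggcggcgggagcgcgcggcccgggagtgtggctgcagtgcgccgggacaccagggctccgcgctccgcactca
COL4A5, chrX:108439588-108439887, plus strand: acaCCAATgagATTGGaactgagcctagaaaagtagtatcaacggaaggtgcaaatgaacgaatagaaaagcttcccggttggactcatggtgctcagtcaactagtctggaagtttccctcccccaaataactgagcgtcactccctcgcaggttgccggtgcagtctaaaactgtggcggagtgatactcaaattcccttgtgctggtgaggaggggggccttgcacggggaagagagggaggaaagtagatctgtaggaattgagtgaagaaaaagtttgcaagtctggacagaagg

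The COL4A2 window is 77.7% G or C and the COL4A5 window 49.3%, against a median of 58.7% over all 35116 windows. The COL4A2 window holds 1 CCAAT box and 1 GC box, and the COL4A5 window 2 CCAAT boxes and no GC box. Over all windows 34.6% hold a CCAAT box and 45.0% a GC box. A TATA box (TATAAA, in 11.5% of windows) and an AP-1 site (TGANTCA, in 7.71%) were also searched on both strands, and neither occurs in these 2 windows. A match says only that the letters are present. Of the 32 members 25 had at least 1 window, and COL3A1, COL5A2, COL8A1, COL9A3, COL14A1, COL22A1 and P4HA3 had none in the table. COL3A1 and COL5A2 also lie next to each other, on chromosome 2.

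Of the other collagens, COL6A3, a chain of the beaded filaments of type VI collagen, had 1538, 1271 and 1463 at PD30, against 596, 629 and 547 in the PD45 control. The groups did not overlap and the ratio was 2.41 (limma, adjusted p = 2.52e-06). COL7A1, the chain of the anchoring fibrils below epithelia, had 23.4, 17.95 and 20.7 at PD30, against 12.3, 12.8 and 9.44 in the PD45 control. All PD30 libraries were above the controls by 1.79-fold on average. COL13A1, a transmembrane collagen, had 22.0, 18.2 and 21.4 at PD30, against 40.0, 33.6 and 32.2 in the PD45 control. Its PD30 libraries all lay below the controls, by 1.72-fold. COL10A1, the network collagen of hypertrophic cartilage, stood at 0.93, 0.27 and 3.04 at PD30, against 11.9, 5.40 and 4.31 in the PD45 control. Both groups spread widely, and without control library 1 the limma difference was -1.44 instead of -1.82. COL14A1, which decorates fibrils, averaged 1.18 at PD30 and 0.297 in the PD45 control, and COL9A3 0.363 and 1.07. COL22A1 was listed at 0 in all PD30 libraries and at 0.09, 0.06 and 0.02 in the PD45 control. These last 3 were below the signal minimum of the re-test.

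**Figure D2:**
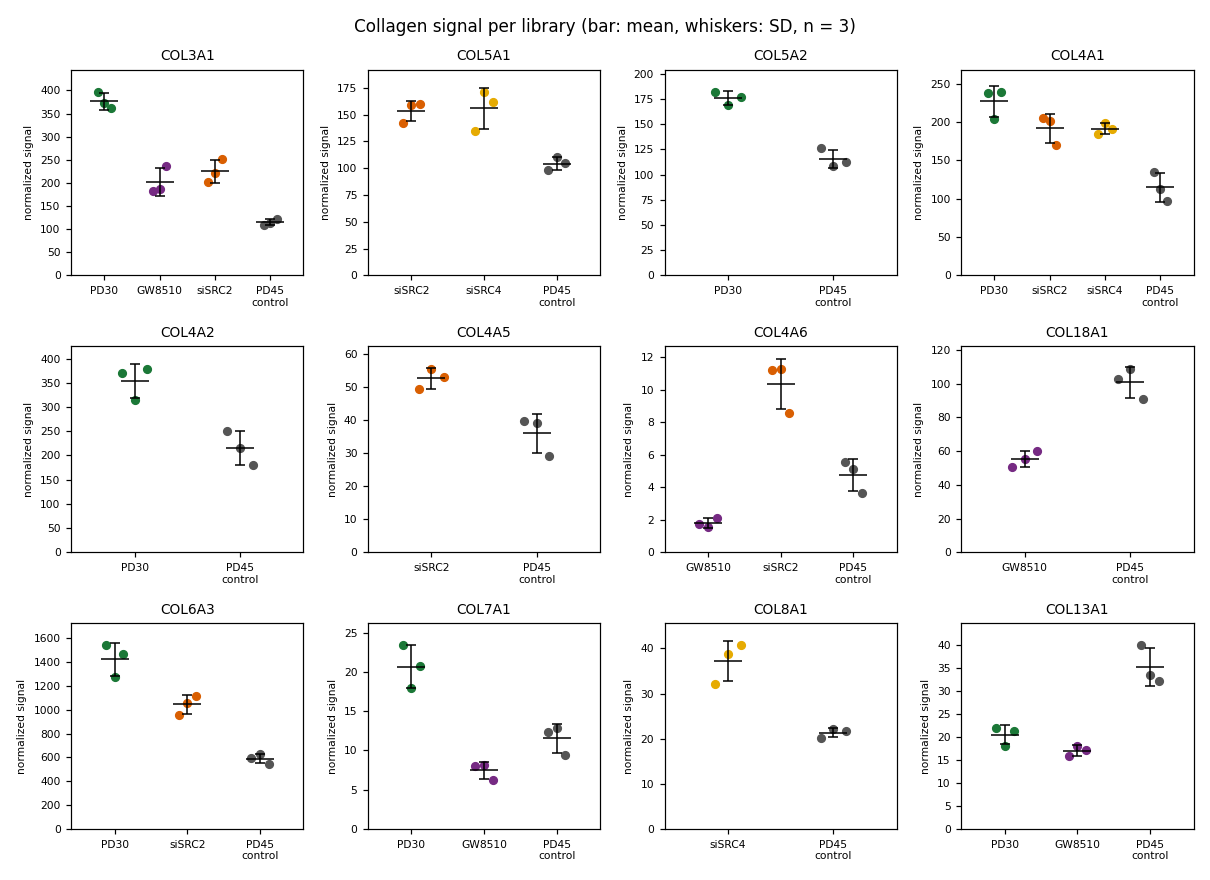
Deposited normalized signal of 12 collagen genes in each library (points), with group mean and SD (n = 3), for every group in which the gene was listed and for the PD45 control. COL3A1 stands highest at PD30 and lowest in the PD45 control, and COL4A6 lies below the PD45 control with GW8510 and above it with siSRC2.

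Among the enzymes at PD30, P3H2, a prolyl 3-hydroxylase that acts on type IV collagen among others, had 41.6, 36.7 and 44.3 at PD30, against 167, 157 and 153 in the PD45 control. It was 3.88-fold lower with no overlap (limma difference -1.93 ± 0.09 SE, adjusted p = 1.51e-07). The antisense transcript P3H2-AS1 was also listed as lower, at 0.257 ± 0.133 at PD30 and 1.28 ± 0.17 in the PD45 control. Whether counting used strand is not given in the sources used here, so reads of the 2 transcripts cannot be told apart. LOXL4, a lysyl oxidase-like cross-linking enzyme, had 8.99, 7.31 and 7.45 at PD30, against 20.1, 23.0 and 19.0 in the PD45 control. It was 2.62-fold lower, the second largest fold among the enzymes that were lower.

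The lysyl hydroxylases were lower at PD30 by smaller folds. PLOD1, which hydroxylates lysines within the helix, had 241, 213 and 241 at PD30, against 404, 399.6 and 362 in the PD45 control. Its ratio of means was 0.596. PLOD2, which hydroxylates lysines of the chain ends, had 40.1, 43.7 and 46.5 at PD30, against 73.1, 75.2 and 64.6 in the PD45 control. Its ratio was 0.612, and the groups were again apart. SERPINH1 went the other way, with 945, 822 and 838 at PD30, against 558, 566 and 577 in the PD45 control, a ratio of 1.53. The control libraries of SERPINH1 were close together and all PD30 libraries stood above them. P4HA3, a catalytic subunit of prolyl 4-hydroxylase, averaged 7.86 ± 0.49 at PD30 and 1.81 ± 0.18 in the PD45 control, 4.35-fold higher.

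With GW8510 the listed fibrillar collagens were higher and all other listed collagens were lower. COL3A1 and COL5A3 rose, whereas COL18A1, COL4A6, COL13A1, COL7A1 and COL10A1 fell, and of the enzymes P3H1 rose and P4HA3 fell. In the limma re-test 9 of the 11 members entered and all 9 passed (3 higher, 6 lower), where 95.4% of all listed genes that entered did. Of the 9, P4HA3 met the signal minimum only through the control libraries, where it was high, and is given as a description. The groups did not overlap in any of the 11, nor in 90.6% of all listed genes. The authors' log2 fold changes lie above the log2 ratios of signals by a median of 0.12 over this table, and no member changes direction with that shift. Signal ratios for GW8510 thus tend to run lower than the authors' folds, but not for every member. COL7A1 (0.647 by signal, 0.601 by the authors) and COL9A2 (0.572 and 0.475) go the other way. COL10A1 differs by more, with a log2 ratio of -2.01 by signal and -1.21 by the authors.

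COL3A1 had 182, 188 and 236 with GW8510, against 108, 114 and 122 in the PD45 control. The third GW8510 library stood above the other two, and all 3 lay above the controls, with a ratio of 1.76. COL5A3 averaged 6.68 ± 0.21 with GW8510 and 1.89 ± 0.19 in the PD45 control, a ratio of 3.53 (limma, adjusted p = 2.33e-05). COL18A1, whose C-terminal fragment is endostatin, had 50.3, 55.3 and 60.4 with GW8510, against 103, 109 and 91.1 in the PD45 control. It was 1.82-fold lower by signal and 1.59-fold lower in the authors' deposited table. COL4A6, a type IV chain, had 1.72, 1.55 and 2.12 with GW8510, against 5.52, 5.14 and 3.62 in the PD45 control, 2.65-fold lower. The GW8510 libraries of both genes lay below all controls.

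COL13A1 had 15.9, 18.2 and 17.1 with GW8510, against 40.0, 33.6 and 32.2 in the PD45 control, 2.07-fold lower. COL7A1 had 7.98, 8.15 and 6.25 with GW8510, against 12.3, 12.8 and 9.44 in the PD45 control. Its difference was the smallest of the lower collagens that entered the re-test (limma difference -0.56 ± 0.15 SE, adjusted p = 0.00491). COL10A1 averaged 1.79 ± 0.08 with GW8510 and 7.22 ± 4.13 in the PD45 control, where library 1 was at 11.9 (limma difference -1.45, and -1.06 without that library). COL15A1 and COL9A2, a type IX chain, were below the signal minimum, at 0.453 and 0.700 with GW8510 and at 1.02 and 1.22 in the PD45 control. P3H1, the prolyl 3-hydroxylase that works with CRTAP, had 113, 116 and 124 with GW8510, against 91.5, 84.8 and 79.9 in the PD45 control. It was higher in all libraries, 1.38-fold by signal and 1.51-fold in the authors' deposited table. P4HA3 averaged 0.783 ± 0.153 with GW8510 and 1.81 ± 0.18 in the PD45 control, 2.31-fold lower, and met the signal minimum only through the control libraries.

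With siSRC2 the listed members were type III, V, VI, IV and XXIV collagens and P4HA3, and all were higher. In the limma re-test all 8 entered and 7 passed, each higher, where 95.5% of all listed genes that entered passed. The groups did not overlap in 7 of the 8, and did not in 90.6% of all listed genes. COL24A1, a fibrillar collagen best known from bone, was the exception, at 3.22, 1.77 and 1.16 with siSRC2 and at 1.66, 1.29 and 0.63 in the PD45 control. Its groups overlap and the limma adjusted p was 0.1001. It passed without siSRC2 library 3 (adjusted p = 0.0300) or without control library 1 (0.0435), and the difference was between 0.19 and 0.67 with any 1 library left out.

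COL6A3 had 958, 1055 and 1117 with siSRC2, against 596, 629 and 547 in the PD45 control, and COL3A1 had 201, 222 and 252 with siSRC2, against 108, 114 and 122 in the PD45 control. Both stood clear of the control range, with limma differences of 0.82 ± 0.09 and 0.96 ± 0.10 (SE, adjusted p = 6.77e-05 and 6.38e-05). COL5A1, the main type V chain, had 143, 159 and 159 with siSRC2, against 98.2, 110.1 and 105 in the PD45 control, a ratio of 1.47. COL4A1 had 205, 201 and 169.6 with siSRC2, against 135, 113 and 96.4 in the PD45 control, a ratio of 1.67. The lowest siSRC2 library of both genes lay above the highest control library.

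The head-to-head pair COL4A5 and COL4A6 was listed together with siSRC2. COL4A5 had 49.2, 55.5 and 52.9 with siSRC2, against 39.8, 38.9 and 29.02 in the PD45 control, a ratio of 1.46. COL4A6 had 11.2, 11.3 and 8.57 with siSRC2, against 5.52, 5.14 and 3.62 in the PD45 control, a ratio of 2.18. Control library 3 was the lowest control in both genes, and no siSRC2 library reached into the control range. P4HA3 had 5.93, 6.47 and 3.84 with siSRC2, against 1.76, 1.65 and 2.01 in the PD45 control. It was 2.996-fold higher, with the third siSRC2 library the closest to the controls. P4HA3 is given by library here because it alone was in all 4 tables, a choice made after its values were seen.

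With siSRC4 the listed collagens were higher and the enzymes split. COL4A1, COL5A1 and COL8A1 rose, P4HA2 and P4HA3 rose, and P4HA1 and PLOD2 fell. In the limma re-test 8 of the 9 members entered and 7 passed (5 higher, 2 lower), where 93.7% of all listed genes that entered did. The groups did not overlap in 8 of the 9, and did not in 88.8% of all listed genes. COL24A1 was again the exception, at 2.86, 1.49 and 1.23 with siSRC4 and at 1.66, 1.29 and 0.63 in the PD45 control (limma adjusted p = 0.161). For siSRC4, libraries with the same number deviated together, and with the replicate number as a block the limma adjusted p of COL24A1 was 0.0303, which brought the count to 8.

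COL4A1 had 184, 199 and 191 with siSRC4, against 135, 113 and 96.4 in the PD45 control, a ratio of 1.67. COL5A1 had 135, 171 and 162 with siSRC4, against 98.2, 110.1 and 105 in the PD45 control, a ratio of 1.496. COL8A1, a short-chain network collagen of vessel walls, had 32.1, 38.7 and 40.7 with siSRC4, against 20.2, 22.1 and 21.7 in the PD45 control, a ratio of 1.74. For all 3 genes the siSRC4 libraries lay above the controls. Its partner chain COL8A2 was listed as higher at low signal (1.15 ± 0.19 with siSRC4 and 0.573 ± 0.086 in the PD45 control) and did not enter the re-test.

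The 3 catalytic subunits of prolyl 4-hydroxylase, which makes the hydroxyproline that stabilises the helix, were all listed with siSRC4 and went different ways. P4HA2 had 109, 115 and 107 with siSRC4, against 63.1, 69.6 and 61.2 in the PD45 control (limma difference 0.76 ± 0.10 SE, adjusted p = 0.000387). P4HA1 had 51.1, 38.6 and 37.1 with siSRC4, against 66.9, 69.0 and 66.6 in the PD45 control (limma difference -0.68 ± 0.13 SE, adjusted p = 0.00165). P4HA2 was thus higher and P4HA1 lower in every siSRC4 library than in any control, by 1.71-fold for P4HA2 and 1.596-fold for P4HA1. P4HA3 had 4.97, 4.56 and 3.39 with siSRC4, against 1.76, 1.65 and 2.01 in the PD45 control, a ratio of 2.38. PLOD2 had 48.6, 47.1 and 39.3 with siSRC4, against 73.1, 75.2 and 64.6 in the PD45 control. It was 1.58-fold lower, with no overlap.

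**Figure D3:**
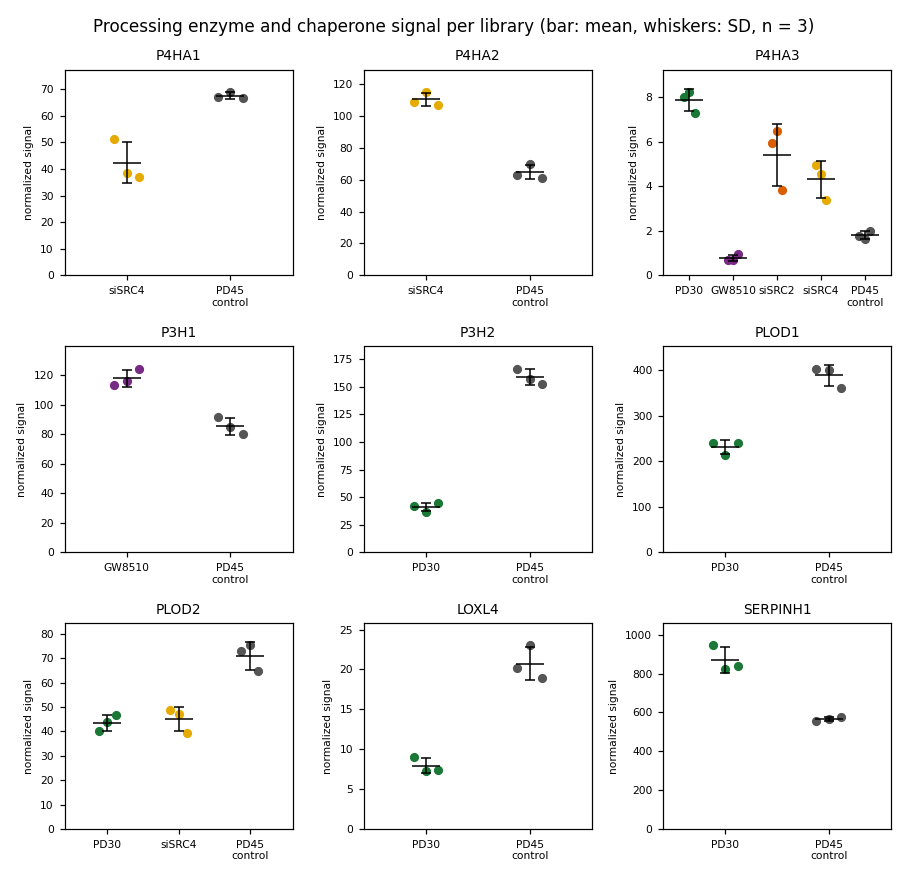
Deposited normalized signal of 8 processing enzymes and the chaperone SERPINH1 in each library (points), with group mean and SD (n = 3), for every group in which the gene was listed and for the PD45 control. P4HA3 lies above the PD45 control at PD30 and with both siRNAs and below it with GW8510, while P4HA1 and P4HA2 move apart with siSRC4.

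The 4 comparisons share their control libraries, so groups other than the PD45 control were also compared directly, for genes listed in both tables. Members gave 22 such comparisons over 6 pairs of groups, and 13 passed in limma at an adjusted p under 0.05, adjusted over all genes that the 2 tables share. Of the 13, COL15A1 and P4HA3 with GW8510 (4 comparisons) met the signal minimum of 1 only through the other group, where they were high, and are given as a description. Between GW8510 and PD30, 5 of 7 members passed with COL15A1 and P4HA3 counted, where 66.4% of all shared genes did. Those that passed on both groups' signal were COL3A1, COL5A3 and COL7A1. Between siSRC2 and PD30 4 of 4 passed (62.9%), and between siSRC4 and PD30 1 of 3 (60.4%). Between GW8510 and siSRC2 2 of 3 passed (72.8%), COL4A6 and, as a description, P4HA3. COL7A1 and COL4A6 were listed in opposite directions for their 2 groups, which already sets the groups apart, so their passes are no added evidence. Between GW8510 and siSRC4 P4HA3 was the only member, and its pass is not read against the share of 34.7%. Between the siRNAs 0 of 4 passed in limma (27.0% of shared genes), and 0 had an unadjusted p under 0.05.

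COL3A1 was higher than the PD45 control in 3 groups, but by different amounts. It averaged 202 ± 30 with GW8510, 225 ± 25 with siSRC2, 377 ± 18 at PD30 and 115 ± 7 in the PD45 control. It was lower than at PD30 both with GW8510 (limma difference -0.90 ± 0.11 SE, adjusted p = 3.47e-05) and with siSRC2 (-0.75 ± 0.09, adjusted p = 1.24e-05). GW8510 and siSRC2 did not differ beyond their spread (limma difference -0.16, 95% interval -0.47 to 0.16, adjusted p = 0.325). COL6A3 was likewise lower with siSRC2 (1044 ± 80) than at PD30 (1424 ± 138), with a limma adjusted p of 0.000554.

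COL4A1 averaged 192 ± 19 with siSRC2, 191 ± 7 with siSRC4, 227 ± 20 at PD30 and 115 ± 19 in the PD45 control. The siRNAs did not differ beyond their spread (limma difference 0.00, 95% interval -0.23 to 0.23). Against PD30 the limma difference was -0.24 ± 0.10 (SE) for each siRNA, at an adjusted p of 0.0451 with siSRC2 and of 0.0520 with siSRC4. The siSRC2 libraries overlapped those of PD30, whereas the siSRC4 libraries did not. The siSRC2 call ended without siSRC2 library 3 (adjusted p = 0.162), PD30 library 1 (0.172) or PD30 library 3 (0.161), and siSRC4 passed without PD30 library 2 (adjusted p = 0.0164). COL5A1 averaged 154 ± 10 with siSRC2 and 156 ± 19 with siSRC4 (limma difference -0.02, 95% interval -0.28 to 0.24). PLOD2 averaged 45.0 ± 5.0 with siSRC4 and 43.5 ± 3.2 at PD30 (limma difference 0.05, 95% interval -0.20 to 0.29).

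P4HA3 was listed for all 4 groups and averaged 0.783 with GW8510, 5.41 with siSRC2, 4.31 with siSRC4, 7.86 at PD30 and 1.81 in the PD45 control. GW8510 was lower than PD30 by 2.31 on the log2(signal + 1) scale, lower than siSRC2 by 1.83 and lower than siSRC4 by 1.56, values that stand as a description because of the signal minimum. Both siRNAs were lower than PD30 (limma adjusted p = 0.0171 for siSRC2 and 0.000947 for siSRC4), and the siSRC2 call ended without PD30 library 1 (adjusted p = 0.0738) or PD30 library 2 (0.0508). The siRNAs did not differ beyond their spread (limma difference 0.26, 95% interval -0.21 to 0.73). COL5A3 was higher with GW8510 (6.68) than at PD30 (3.60), with a limma difference of 0.74 ± 0.11 (SE). COL13A1 and COL10A1, lower than the PD45 control in both groups, did not differ between GW8510 and PD30 beyond their spread (limma adjusted p = 0.0767 and 0.359). Single PD30 libraries decided both: COL13A1 passed without PD30 library 2 (adjusted p = 0.0383) and COL10A1 without PD30 library 3 (0.00274).

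**Figure D4:**
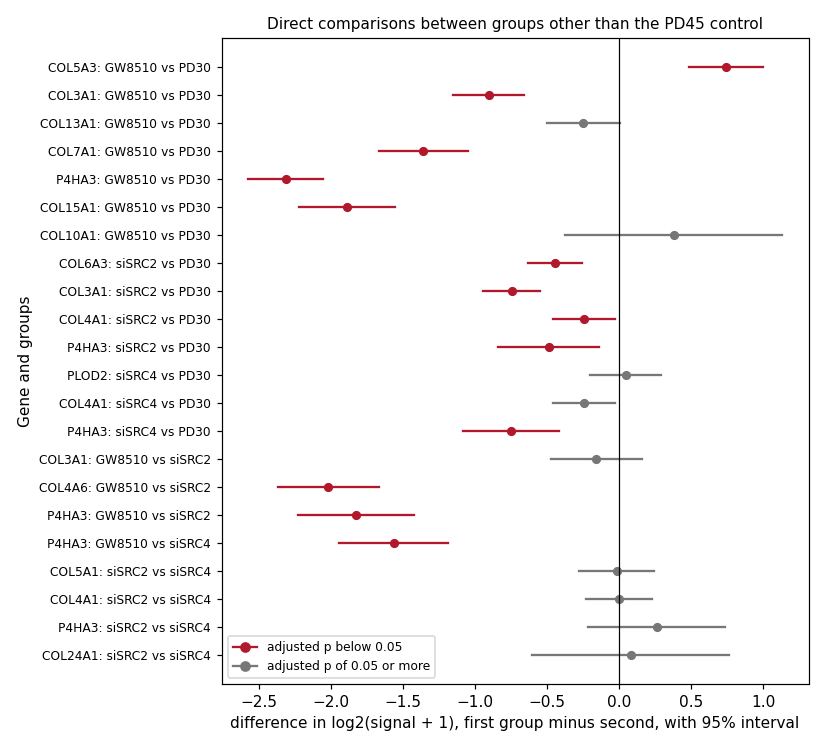
Differences in log2(signal + 1) between 2 groups other than the PD45 control (first minus second, points) with their 95% intervals, for the 22 member comparisons listed in both tables. Red marks an adjusted p under 0.05, and all 3 P4HA3 differences of GW8510 from another group lie between -2.31 and -1.56. The P4HA3 and COL15A1 differences with GW8510 stand as a description because of the signal minimum.

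Genes around collagen outside the rule were counted in 7 lists, and values of named genes are means ± SD of 3 libraries. Of 13 collagen folding and modification genes, 2 were listed for PD30 (1 higher, 1 lower) and 3 for siSRC4 (2 higher, 1 lower), and COLGALT1, a collagen galactosyltransferase, averaged 181 ± 10.2 with siSRC4 and 101 ± 5.45 in the PD45 control. Of 7 procollagen cleavage genes, 3 were listed for PD30 (2 higher, 1 lower) and 1, higher, for siSRC4. PCOLCE, which enhances cleavage of the C-propeptide, averaged 454 ± 36.6 at PD30 and 281 ± 22.0 in the PD45 control. Of 14 fibril organisation genes, 1 was higher for PD30 and 1 for siSRC2, 2 were lower with GW8510, including the fibronectin gene FN1, and siSRC4 had 1 each way.

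The collagen receptors and the degradation genes are given in the same way, at the same background shares. Of 10 receptor genes, 2 were lower at PD30, 3 lower with GW8510, 1 lower with siSRC2, and 3 higher and 1 lower with siSRC4. ITGA11, an integrin subunit for fibrillar collagen, averaged 14.3 ± 0.832 at PD30, 21.3 ± 0.705 with GW8510, 53.4 ± 6.12 with siSRC4 and 33.1 ± 3.36 in the PD45 control. DDR1, a collagen receptor kinase, averaged 21.1 ± 3.26 with siSRC2, 52.7 ± 4.16 with siSRC4 and 32.6 ± 2.30 in the PD45 control. ITGA1, another integrin subunit, averaged 17.3 ± 0.0416 at PD30, 14.8 ± 3.13 with siSRC4 and 25.3 ± 3.26 in the PD45 control, and ITGA2 averaged 6.56 ± 0.348 with GW8510 and 20.9 ± 5.05 in the PD45 control. Of 13 degradation genes, 1 was lower at PD30, 3 lower with GW8510, and 1 higher with each siRNA. CTSK, the collagen-cleaving cathepsin K, averaged 22.55 ± 1.48 at PD30, 19.7 ± 2.60 with GW8510 and 39.5 ± 3.93 in the PD45 control, and FAP, a fibroblast surface protease, 24.2 ± 1.26 with GW8510 and 48.0 ± 2.53 in the PD45 control. The collagenase gene MMP1 was also lower with GW8510, and MMP14 was the gene listed with both siRNAs, at 496 ± 69.4 with siSRC2, 824 ± 82.7 with siSRC4 and 331 ± 39.8 in the PD45 control.

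Of 15 TGF-beta pathway genes, GW8510 and siSRC2 each had 1 higher and 1 lower. LTBP2, a latent TGF-beta binding protein family member, averaged 21.7 ± 1.56 with GW8510 and 41.8 ± 8.82 in the PD45 control. Of 13 basement membrane partners of type IV collagen, PD30 had 1 higher and 2 lower, GW8510 1 higher and 1 lower, and each siRNA 2 higher. HSPG2 (perlecan) averaged 68.0 ± 11.1 at PD30 and 116 ± 24.2 in the PD45 control, NID2 338 ± 38.2 with GW8510 and 168 ± 22.9 in the PD45 control, and NID1 32.7 ± 2.57 with siSRC2 and 20.6 ± 3.58 in the PD45 control. LAMB2, a laminin chain, averaged 370.4 ± 35.2 with siSRC4 and 238 ± 35.4 in the PD45 control. LAMA1, another laminin chain, averaged 4.20 ± 0.480 at PD30, 7.07 ± 0.327 with GW8510, 21.5 ± 2.09 with siSRC4 and 12.8 ± 1.69 in the PD45 control.

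Transcript composition of listed members is given beside that of all listed genes, with no test of the difference. At PD30 the 11 higher members had a median GC content of 55.2% and a median length of 6466 bases, against 49.4% and 3209 bases for all genes higher (longest protein-coding transcript, GENCODE 29). The 9 lower members with a value had 57.7% and 3509 bases, against 48.1% and 3957 bases for all genes lower. With GW8510 the 3 higher members had 57.5% and 5543 bases, against 56.3% and 2864 bases for all genes higher, and the 8 lower members 57.1% and 4497 bases, against 41.6% and 4687 bases for all genes lower. With siSRC2 the 8 members, all higher, had 53.8% and 6683 bases, against 47.7% and 5242 bases for all genes higher. With siSRC4 the 7 higher members had 54.4% and 5705 bases, against 56.4% and 3644 bases for all genes higher, and the 2 lower members (P4HA1 and PLOD2) 39.2% and 3288 bases, against 41.1% and 3953 bases for all genes lower. Higher members thus had longer transcripts at the median than all genes higher in each of the 4 tables. The GC content of members stood above that of all genes in the same direction for PD30, GW8510 and siSRC2, and below it for siSRC4. The part of composition in these results was not tested.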

How the data were processed

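RNA-seq of 15 libraries was deposited as 4 tables, each setting one group against the PD45 control. Per the submitters' processing notes the tools include CASAVA, HISAT2, StringTie, RSEM, DESeq2 and edgeR, with no role stated, and the build named is GRCm38, a mouse assembly, although the gene identifiers are human. Per the file headers, a row holds the authors' fold ratio, log2 fold change, p-value and adjusted p-value, and the deposited normalized signal of 6 libraries. In the siSRC2 and siSRC4 tables the names of the mean and library columns disagree, and library names were followed. The PD45 control values were identical across tables.

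Means and SDs were computed in Python 3.11.15 (pandas 2.3.3), and differences with limma 3.58.1 (R 4.3.3) on log2(signal + 1), with the variance modelled as a trend on the mean. Genes below a mean of 1 did not enter, and p-values were adjusted by Benjamini-Hochberg over each table or over genes in both tables. The fits were tested on simulated data. This scale understates changes of low genes. With 3 against 3 libraries a two-sided exact permutation test cannot go below 0.1, so none is given. The number of genes the authors tested is the ratio of adjusted to raw p in a table's first row. Same-numbered libraries deviated together by the criterion used (every correlation over 0.1) for siSRC4 against the PD45 control (0.122, 0.107 and 0.136) and for GW8510 against siSRC4 (0.309, 0.144 and 0.265), a pattern of the data and not of the labels. Alternatives were the pseudocount, the signal minimum, the trend, the replicate block, each library left out, a stricter listing threshold and, added after the data were seen, signals rescaled to the authors' folds. Every member is named. Those with a mean signal of at least 10 in a group are given by library, and genes of other lists only from a mean of 20. COL10A1, COL22A1, COL24A1 and P4HA3 lie below that mean of 10 and are nevertheless given by library in places. The members and lists were chosen with earlier results of these data known. For the TGF-beta list, the PD30 and siSRC4 counts are not reported here.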

Additional observations from a re-analysis of the deposited data

Results flagged for a closer look

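Members listed in opposite directions for 2 groups, whose difference also passed the direct limma comparison, were singled out. Listing in opposite directions against the same control already sets the 2 groups apart, and every such comparison passed. The direct pass is therefore no added evidence. COL7A1 was lower with GW8510 and higher at PD30, each against the PD45 control, and the direct difference of GW8510 from PD30 was -1.36 on the log2(signal + 1) scale. COL15A1 showed the same pattern, with a direct difference of -1.89, at 0.453 with GW8510 and 4.33 at PD30. It was below the signal minimum of 1 against the PD45 control and met it here only through the PD30 libraries. COL4A6 was lower with GW8510 and higher with siSRC2, a direct difference of -2.02. P4HA3 was lower with GW8510 and higher in the other 3 groups, with direct differences of -2.31 from PD30, -1.83 from siSRC2 and -1.56 from siSRC4, and it too met the minimum only through the other group, since it averaged 0.783 with GW8510.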

How the results depend on the processing

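Under a stricter listing threshold (adjusted p of at most 0.01 and a fold of at least 2) 8 members stayed listed at PD30 and 5 with GW8510. COL4A6 and P4HA3 stayed with siSRC2, and P4HA3 and COL24A1 with siSRC4. With siSRC4, COL24A1 had not passed the re-test (limma adjusted p = 0.161). Of all listed genes, 1292 of 2845 stayed at PD30 and 448 of 1845 with GW8510. With the replicate block 17 members passed the re-test at PD30, where 2198 of all 2258 genes that entered did. With GW8510 9 passed, P4HA3 included, where 1552 of all 1625 did. Such shares are not given here for the siRNAs. With the block 8 members passed with siSRC2 and 8 with siSRC4, and COL24A1 was the added gene for both siRNAs (limma adjusted p = 0.00728 for siSRC2). For siSRC2 the numbers did not meet the criterion for pairing (correlations of 0.0891, 0.0883 and 0.218), although each library correlated best with its own number. The block also ended the call of COL4A1 between siSRC2 and PD30 (adjusted p = 0.0908), as did a pseudocount of 0.1 (0.0507) and a fit with no trend (0.0872), and it changed no other member's call. Leaving out 1 library at a time, 7 to 8 members passed the re-test with siSRC2, and the count was 2 to 4 for siSRC2 against PD30 and 1 to 2 for siSRC4 against PD30. It was 2 for siSRC2 without PD30 library 1, and 2 for siSRC4 without PD30 library 2 or with rescaled signals. Shares over all genes are not set beside these ranges, which describe only how far single libraries move the counts. Differences that turned sign were small and not called in either form. With rescaled signals they were those of PLOD2 between siSRC4 and PD30 (-0.00669) and COL3A1 between GW8510 and siSRC2 (0.00715). With 1 library left out, the range was -0.0118 to 0.139 for PLOD2 between siSRC4 and PD30. Between siSRC2 and siSRC4 it was -0.18 to 0.32 for COL24A1, -0.120 to 0.0528 for COL5A1 and -0.0505 to 0.0845 for COL4A1. The exception is COL10A1 between GW8510 and PD30, from -0.00157 to 0.83, which passed at the upper end. The causes were not tested. Over all alternatives, 675 member differences kept direction and side of the threshold, 8 lost and 8 gained the call, and 13 turned sign. Depth is unknown, so members of low signal have no detection limit.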

Other observations

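The PD45 control libraries were not alike, and this was not particular to type IV collagen. Library 3 was the lowest control for COL4A1 (96.4), COL4A2 (180.3), COL4A5 (29.02) and COL4A6 (3.62). It was also the lowest for COL6A3 (547), COL7A1 (9.44), COL13A1 (32.2), COL18A1 (91.1), P3H1, P3H2, PLOD1, PLOD2, LOXL4, P4HA1 and P4HA2. For COL3A1 (122) and SERPINH1 (577) the same library was the highest control, and for COL5A1, COL5A2 and COL8A1 it lay between the others. Among siSRC2 libraries, library 3 was the lowest for COL4A1 (169.6), COL4A6 (8.57), P4HA3 (3.84) and COL24A1 (1.16) and the highest for COL3A1 (252) and COL6A3 (1117). For COL24A1, library 1 was the highest and library 3 the lowest in the siSRC2 group, the siSRC4 group and the PD45 control.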
